A study of Drosophila melanogaster with 4 samples.

Results

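The genes described here encode the Polycomb repressive complexes of the fruit fly Drosophila melanogaster, measured in sorted intestinal stem cells after RNA interference against Piwi. They are 10 genes picked by symbol: E(z), esc and Su(z)12 of the complex PRC2, Pc, ph-p, ph-d, Psc and Sce of PRC1, and Scm and pho, whose proteins work with both. All 10 were found among the 15495 rows of the deposited table, and the gene identifiers of all 10 carry the same symbols in the current name table. Each had a mean of at least 1 FPKM over the libraries and so entered the test with 8313 genes in all. FPKM, fragments per kilobase of transcript scaled to the mapped fragments of a library, takes account of transcript length, so levels of different genes can be compared on it.

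The study holds 4 RNA sequencing libraries in 2 groups of 2. In the control group, mCherry RNAi, the RNA interference was against mCherry, a fluorescent protein that flies lack, and the labels of these libraries also name a yw source. In the other group, Piwi RNAi, it was against Piwi, an Argonaute protein that silences transposable elements with the help of small RNAs. Both groups were held at 29 °C for 7 days, and each library came from cells sorted by flow cytometry from a pool of 100 guts. The driver of the RNA interference and the relation between the genetic backgrounds of the groups were not stated in any source used here. Each library is a pool of animals, so p-values measure the spread between pools.

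Polycomb proteins keep developmental genes silent through cell divisions. PRC2 methylates histone H3 on lysine 27, with E(z) as the catalytic subunit, and PRC1 binds this mark through the chromodomain of Pc, compacts chromatin and, through the RING protein Sce, ubiquitinates histone H2A. In fly embryos and imaginal discs the complexes are best known for silencing Hox genes, and Trithorax group proteins act against them to keep such genes active.

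FPKM values summed to between 900475 and 1050749 per library, and the depth estimated from the steps of low values was 1610000 to 2280000 fragments. The targeted gene piwi had 0.495 and 1.94 FPKM in the controls and 0.208 and 0.442 FPKM under Piwi RNAi, near the detection limit in both groups. Its mean was under 1 FPKM, so it was not tested, and these values do not settle how far its RNA was lowered. All 8 progenitor markers were above 0 in every library, and their summed level was 3118 and 3325 FPKM in the controls against 3670 and 3673 FPKM under Piwi RNAi. E(spl)mbeta-HLH, a Notch target, made up most of that sum, at 2531 to 2827 FPKM. Of the 8, 5 were higher in both Piwi RNAi libraries, against 51.5% of all tested genes, and 0 passed limma's test. After median-of-ratios scaling 3 were higher in both, against 26.9% of all tested genes, and 3 were lower in both. After quantile normalization 6 were higher in both, against 32.7%, and 1 was lower. Under both scalings 0 passed, while 2 did with robust eBayes or the filter of 5 FPKM and 1 with the replicate number as a block. klu had 28.5 and 34.4 FPKM in the controls and 82.4 and 86.1 FPKM under Piwi RNAi (adjusted p = 0.0594 by limma), and zfh2 had 11.1 and 12.7 FPKM against 29.2 and 30.4 FPKM (adjusted p = 0.0880 by limma). Sox100B, at 231.7 and 272.5 FPKM against 227.9 and 236.3 FPKM, overlapped between the groups. So did Dl, at 3.41 and 3.98 FPKM against 4.49 and 3.55 FPKM, and sc, at 2.22 and 0.728 FPKM against 2.81 and 1.65 FPKM. mCherry RNAi replicate 1 stood apart from the other libraries, with a summed level of the 13 enterocyte markers of 17971 FPKM against 903.0 to 1792 FPKM elsewhere, and of the 9 visceral muscle markers of 89.8 FPKM against 4.38 to 8.72 FPKM. Of the 13 enterocyte markers 0 had a positive log2 difference and 0 passed limma's test. Lower in both Piwi RNAi libraries were 4 of them, against 13% of all tested genes. Myo31DF was 1 of these, at 135.3 and 127.5 FPKM in the controls against 90.3 and 77.9 FPKM. Without mCherry RNAi replicate 1, 5 of the 13 had a positive difference. Of 7 visceral muscle markers tested, only up was lower in both, at 21.3 and 6.24 FPKM against 0.473 and 0.653 FPKM. The summed level of the 11 enteroendocrine markers was 2838 and 5596 FPKM in the controls and 269.1 and 483.2 FPKM under Piwi RNAi. Orcokinin and npf made up most of that sum. Of 9 enteroendocrine markers tested, 7 were lower in both Piwi RNAi libraries, as were 13% of all tested genes. Only Orcokinin passed (adjusted p = 0.0313 by limma), while 6 passed with the replicate block and 0 after median-of-ratios scaling. CCHa1, CCHa2 and Dh31 overlapped between the groups. In such sorted bulk samples fewer cells of a type and less RNA per cell cannot be told apart. Of 6 hemocyte markers, NimC1 and He were listed at 0 in every library, Hml and Pxn were above 0 only in mCherry RNAi replicate 1, and crq, at 79.0 to 112.5 FPKM, made up most of the summed 80.7 to 130.4 FPKM. The scavenger receptor gene Sr-CI had 1.528 and 3.003 FPKM in the controls and 12.6 and 17.96 FPKM under Piwi RNAi, a log2 difference of 2.33 (adjusted p = 0.0785 by limma). Neither tested hemocyte marker passed, and 1 of the 2 did with robust eBayes or the replicate block. Of 5 germ line markers, nos and osk were listed at 0 in every library and the sum was at most 2.84 FPKM. The part of the progenitor, enterocyte, enteroendocrine, visceral muscle and hemocyte markers that differed between the groups in the results for the Polycomb genes was not tested.

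Most Polycomb genes had higher values after Piwi RNA interference, while Pc and esc did not, and Sce did not once the libraries were rescaled. The log2 difference of ph-p shrank to 0.11 after median-of-ratios scaling and 0.10 after quantile normalization, with overlapping groups in both. The groups of pho overlapped after quantile normalization only. In 8 of the 10 both Piwi RNAi libraries lay above both mCherry RNAi libraries, where 51.5% of all tested genes did so, and the other two overlapped between the groups. The catalytic subunit gene E(z) had the largest difference of the 10, 2.57-fold by group means, and Pc the lowest, at 0.704 times its control mean. None of the 10 passed limma's test at an adjusted p under 0.05 in either direction, which 1.18% of all tested genes did, 0.613% higher and 0.565% lower. Their adjusted p-values from limma with Benjamini-Hochberg adjustment over 8313 genes ran from 0.140 for E(z) to 0.926 for esc. At an unadjusted p under 0.05, 6 of the 10 were higher, as were 21.7% of all tested genes. The median log2 difference of the 10 genes (log2(FPKM + 1) of the Piwi RNAi libraries less that of the controls) was 0.79, while that of all tested genes was 0.37. After median-of-ratios scaling, which brought the median of all genes to −0.01, the 10 genes had a median of 0.42. On that scale 6 of them exceeded both controls in both Piwi RNAi libraries, where 26.9% of all tested genes did, and Pc and Sce lay lower in both. Without mCherry RNAi replicate 1 the count was again 8 of 10 against 58.6% of all genes, with Pc and esc below the remaining control.

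**Figure D1:**
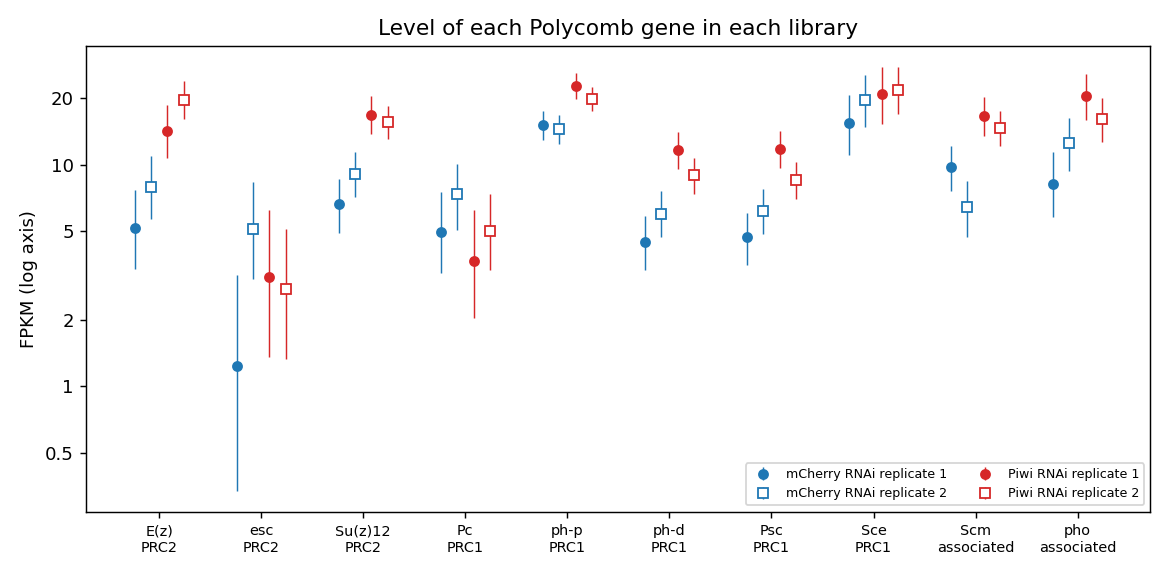
FPKM (log axis) of the 10 Polycomb genes in each of the 4 libraries, with mCherry RNAi in blue and Piwi RNAi in red, filled circles for replicate 1 and open squares for replicate 2. Bars are exact 95% Poisson intervals made from estimated fragment numbers and cover counting error only. Both red points lie above both blue points for every gene but esc and Pc.

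In PRC2 the groups of E(z) and Su(z)12 did not overlap and those of esc did, and a difference between the subunits was not tested. E(z) (FBgn0000629), the methyltransferase, had 5.19 and 7.95 FPKM in the first and second control library, and 14.1 and 19.6 FPKM in the first and second Piwi RNAi library. Both Piwi RNAi values were above both control values, by more than the 1.53-fold spread within the controls. Its log2 difference was 1.25 ± 0.32 (SE), with a 95% interval of 0.43 to 2.07 and an adjusted p of 0.140 by limma, and it was larger than that of 95.3% of all tested genes. Su(z)12 (FBgn0020887), the zinc finger subunit that holds the complex together, had 6.62 and 9.04 FPKM in the controls and 16.8 and 15.5 FPKM after Piwi RNA interference. These groups did not overlap either, and the log2 difference was 0.97 ± 0.26 with an adjusted p of 0.143 by limma. esc (FBgn0000588), the WD40 subunit that binds the trimethylated histone tail and stimulates E(z), was the lowest of the 10 in both groups. It had 1.23 and 5.14 FPKM in the controls and 3.12 and 2.75 FPKM under Piwi RNAi. Its controls differed 4.18-fold and enclosed both Piwi RNAi values. These levels rest on about 4, 17, 8 and 10 fragments, so the exact Poisson interval of the lowest value ran from 0.339 to 3.19 FPKM. The log2 difference of esc was 0.08, with a 95% interval from −1.45 to 1.62, and it became −0.65 without mCherry RNAi replicate 1 and −0.20 after median-of-ratios scaling. This interval, which limma drew from the spread between libraries, holds a rise and a fall by 2-fold. Neither was therefore detectable with 2 libraries per group, and the part of depth in its width was not tested. The interval also holds the log2 differences of E(z) and Su(z)12, so it cannot show that esc differed from them.

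The 5 other PRC2 genes of a background list, all tested, gave further values for the same complex. escl, the close relative of esc that can take its place in fly PRC2, had 3.17 and 5.67 FPKM in the controls and 5.29 and 4.89 FPKM under Piwi RNAi, so its groups overlapped too. Caf1, the histone-binding subunit that PRC2 shares with other chromatin complexes, had 15.4 and 32.1 FPKM against 40.2 and 33.4 FPKM. Pcl, which directs PRC2 towards high levels of methylation, had 6.90 and 12.9 FPKM against 16.6 and 15.1 FPKM. Jarid2, a DNA-binding partner of PRC2, had 11.98 and 10.85 FPKM against 18.45 and 18.02 FPKM. Caf1, Pcl and Jarid2 were higher in both Piwi RNAi libraries, and their log2 differences were 0.70, 0.69 and 0.63, with adjusted p-values by limma of 0.286, 0.254 and 0.171. So was jing, the fly relative of the accessory subunit AEBP2, with 3.81 and 5.01 FPKM against 8.30 and 7.93 FPKM and an adjusted p of 0.181 by limma.

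Within PRC1 ph-d and Psc had higher values in Piwi RNAi and Pc had not. The direction of Sce depended on the scaling, and so did the separation of the ph-p groups. Pc (FBgn0003042), the chromodomain subunit that reads the PRC2 mark, had 4.99 and 7.35 FPKM in the controls and 3.68 and 5.01 FPKM under Piwi RNAi. Piwi RNAi replicate 2 lay just above mCherry RNAi replicate 1, so the groups overlapped. About 24 and 35 fragments stand behind the control values and 14 and 27 behind the others. The log2 difference of Pc was −0.42 ± 0.34, with a 95% interval from −1.29 to 0.47 and an adjusted p of 0.426 by limma. It was the only negative difference of the 10, it stayed negative in all 13 alternative settings, from −0.75 to −0.18, and its groups ceased to overlap after median-of-ratios scaling or quantile normalization. The filters, the eBayes options and the replicate block cannot change a log2 difference, so only the other settings bear on its sign.

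Psc (FBgn0005624), a RING finger protein that compacts chromatin and partners Sce, had 4.69 and 6.15 FPKM in the controls and 11.8 and 8.53 FPKM under Piwi RNAi. The groups did not overlap, and the log2 difference was 0.79 ± 0.30 (adjusted p = 0.184 by limma). Sce (FBgn0003330), the histone H2A ubiquitin ligase also called dRing, was the highest of the 10 in mCherry RNAi. It had 15.4 and 19.6 FPKM there and 20.8 and 21.7 FPKM under Piwi RNAi. The highest control lay just below the lower Piwi RNAi value, the log2 difference was 0.28 ± 0.23, and it was −0.12 after quantile normalization and −0.11 after median-of-ratios scaling.

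The neighbouring genes ph-p and ph-d encode close copies of Polyhomeotic, whose SAM domain joins PRC1 units into clusters. No protein-coding gene lies between them in the Ensembl annotation of assembly BDGP6. No source used here states how reads shared by these copies were assigned, so the split of signal between them is uncertain. ph-p (FBgn0004861) had 15.02 and 14.40 FPKM in the controls and 22.7 and 19.8 FPKM under Piwi RNAi, a log2 difference of 0.50 ± 0.22 (adjusted p = 0.213 by limma). ph-d (FBgn0004860) had 4.483 and 5.999 FPKM in the controls and 11.6 and 8.97 FPKM under Piwi RNAi, a log2 difference of 0.86 ± 0.29 (adjusted p = 0.170 by limma). Both genes were higher in both Piwi RNAi libraries, though the groups of ph-p overlapped after median-of-ratios scaling or quantile normalization. The ratio of ph-p to ph-d was 3.35 and 2.40 in the mCherry RNAi libraries and 1.95 and 2.21 in the Piwi RNAi libraries.

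Of the genes that work with both complexes, Scm (FBgn0003334), a SAM domain protein that links PRC1 with PRC2, had 9.73 and 6.42 FPKM in the controls and 16.5 and 14.6 FPKM under Piwi RNAi. The groups did not overlap, and the log2 difference was 0.89 ± 0.29 (adjusted p = 0.162 by limma). The DNA-binding zinc finger gene pho (FBgn0002521), the fly relative of YY1 that brings the complexes to Polycomb response elements, had 8.16 and 12.5 FPKM in the controls and 20.4 and 16.1 FPKM under Piwi RNAi. It too was higher in both Piwi RNAi libraries, with a log2 difference of 0.78 ± 0.30 (adjusted p = 0.186 by limma), though its groups overlapped after quantile normalization. Its paralog phol, from the background list, had 14.6 and 13.8 FPKM against 17.1 and 22.4 FPKM. Sfmbt, the partner of pho in the complex PhoRC, had 6.82 and 8.63 FPKM against 10.2 and 12.8 FPKM. Neither passed the test, with log2 differences of 0.44 and 0.52.

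**Figure D2:**
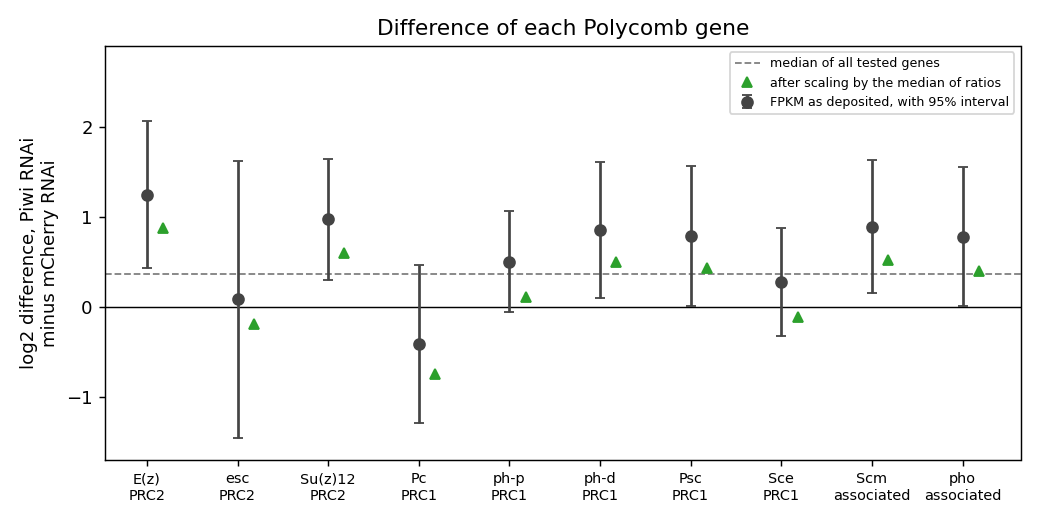
Log2 difference of each Polycomb gene, Piwi RNAi less control, as log2(FPKM + 1), with its 95% interval from limma (2 libraries per group), and the same difference after median-of-ratios scaling (triangles). The dashed line is the median of all 8313 tested genes, 0.37. E(z) lies highest at 1.25 and Pc lowest at −0.42, and the triangles of esc and Sce fall below 0.

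The order of levels gave a second view of the same genes. In mCherry RNAi the order by mean FPKM was Sce, ph-p, pho, Scm, Su(z)12, E(z), Pc, Psc, ph-d and esc. Sce exceeded ph-p, and ph-p exceeded pho, in both control libraries, while each pair of neighbours from pho down to esc had overlapping values. In Piwi RNAi the order was Sce, ph-p, pho, E(z), Su(z)12, Scm, ph-d, Psc, Pc and esc. There the first 6 genes formed a band with means of 15.6 to 21.3 FPKM in which neighbours overlapped. ph-d and Psc followed at 10.3 and 10.1 FPKM, clear of that band, then Pc at 4.34 ± 0.939 FPKM and esc at 2.93 ± 0.261 FPKM (SD, n = 2), each below the gene before it in both libraries. E(z) thus stood at 6.57 ± 1.95 FPKM beside Pc at 6.17 ± 1.67 FPKM in mCherry RNAi, but at 16.9 ± 3.88 FPKM under Piwi RNAi. The summed level of the 3 PRC2 genes was 13.0 and 22.1 FPKM in the first and second control and 34.1 and 37.9 FPKM under Piwi RNAi, and that of the 5 PRC1 genes was 44.6 and 53.4 FPKM against 70.6 and 64.1 FPKM. Neither sum overlapped between the groups on the deposited scale. After median-of-ratios scaling, added after seeing the data, the PRC2 sum was 16.1 and 23.6 in the controls against 29.2 and 32.9 under Piwi RNAi, while the PRC1 sum, at 55.0 and 56.9 against 60.6 and 55.6, overlapped.

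Ratios of a pair of genes within a library do not depend on any scaling between libraries, and 45 such ratios were computed among the 10 genes. In 25 of the 45, or 55.6%, the groups did not overlap, close to the 52.9% among all pairs of tested genes above 0 in every library. The number of separated ratios is therefore no result about these genes. With 2 libraries per group the smallest p of an exact permutation test is 0.333, so the ratios are given without a test, and those described were chosen after their values were seen. The ratio of Pc to E(z) was 0.961 and 0.924 in the mCherry RNAi libraries and 0.260 and 0.255 in the Piwi RNAi libraries. Replicates thus lay close together, and the control ratios were well above the others. The ratio of Pc to ph-d was 1.11 and 1.22 in mCherry RNAi and 0.316 and 0.558 in Piwi RNAi, and that of Pc to pho was 0.611 and 0.588 against 0.181 and 0.311. Of its 9 ratios to the other genes, those of Pc were lower in both Piwi RNAi libraries for 8, and the ratio to esc overlapped. Sce, the next in this respect, was lower against 6 of the 9 and higher against Pc. The 9 ratios of a gene all reuse its own values, so such counts are not separate observations. The 52.9% of all pairs covers separation in either direction, and a share for 1 direction was not computed. The ratio of ph-d to Psc was 0.955 and 0.976 in mCherry RNAi and 0.988 and 1.052 in Piwi RNAi, so these genes stood at nearly equal levels in every library. Su(z)12 to ph-d, at 1.48 and 1.51 against 1.44 and 1.73, overlapped between the groups.

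**Figure D3:**
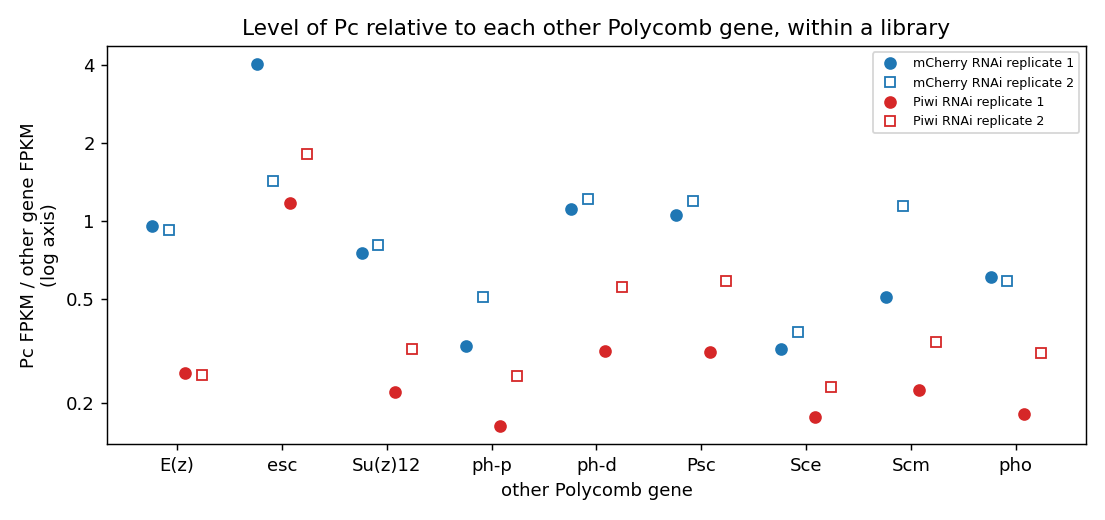
Ratio of the FPKM of Pc to that of each other Polycomb gene within a library (log axis), with mCherry RNAi in blue, Piwi RNAi in red, circles for replicate 1 and squares for replicate 2. For every gene but esc, both red points lie below both blue points, and for E(z) the ratio was 0.961 and 0.924 in mCherry RNAi against 0.260 and 0.255 in Piwi RNAi.

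The percentile of each gene among the 8313 tested genes of its library gave a similar picture. E(z) stood at percentiles 28.4 and 37.4 in mCherry RNAi and 45.5 and 55.8 in Piwi RNAi. Su(z)12 stood at 34.6 and 40.6 against 51.0 and 48.8. Pc stood at 27.3 and 35.3 in mCherry RNAi and lower, at 18.1 and 24.4, in Piwi RNAi. The percentile was higher in both Piwi RNAi libraries for 5 of the 10 genes, E(z), Su(z)12, ph-d, Psc and Scm, and for 32.9% of all tested genes. It was lower in both for Pc alone, as for 19.8% of all tested genes, and overlapped for esc, ph-p, Sce and pho.

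Differences across all tested genes varied with transcript length and level, and the values follow for the ranges that hold the Polycomb genes. The median log2 difference was 0.36 for the 2774 tested genes whose longest transcript is 1000 to 2000 nt, where esc and Sce lie, and 0.41 for the 1587 of 2000 to 3000 nt, where E(z), Pc and pho lie. It was 0.45 for the 1326 genes of 3000 to 5000 nt, with Su(z)12 and Scm, and 0.45 for the 777 longer ones, with ph-p, ph-d and Psc. By level, the median was −0.07 for the 1900 tested genes with a mean of 1 to 5 FPKM, such as esc, 0.49 for the 1337 of 5 to 10 FPKM, such as Pc, ph-d and Psc, and 0.53 for the 1763 of 10 to 20 FPKM, which hold the other 6. Between 10 and 20 FPKM, 65.1% of all tested genes were higher in both Piwi RNAi libraries. The part of length and level in the values of the Polycomb genes was not tested. Reads could also be shared with genes that overlap on the opposite strand. Exons of E(z), Pc and Scm overlap those of CG34001, CG7632 and SpdS over 38, 60 and 315 nt in the Ensembl annotation, which is 1.4%, 2.4% and 7.7% of their exon length. CG7632 had 6.27 and 6.89 FPKM in the controls and 17.1 and 17.7 FPKM under Piwi RNAi, and SpdS had 49.1 and 63.1 FPKM against 36.7 and 57.1 FPKM.

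The remaining genes of the Polycomb system were taken from background lists. Of 17 other Polycomb genes, including the PRC2 genes above, 17 were tested, and 15 were higher in both Piwi RNAi libraries against 51.5% of all tested genes. By limma 0 of the 17 passed and 5 were higher at an unadjusted p under 0.05, a share near the 21.7% of all tested genes. Their median log2 difference was 0.63, or 0.27 above that of all genes, and 0.25 after median-of-ratios scaling, where 6 were higher in both, near the 26.9% of all tested genes, and 1 was lower in both. The smallest p belonged to mxc, a scaffold of the histone locus body with homeotic mutant phenotypes, at 2.65 and 4.32 FPKM in the controls and 9.54 and 8.59 FPKM under Piwi RNAi (adjusted p = 0.146 by limma). Jarid2, calypso, which removes ubiquitin from histone H2A, and crm followed, with log2 differences of 0.63, 0.92 and 0.79. Kdm2, a partner of Sce in a PRC1 variant, had 23.5 and 20.3 FPKM against 24.50 and 19.99 FPKM, a log2 difference of 0.02. Su(z)2, the paralog of Psc, had 5.26 and 3.65 FPKM against 8.63 and 6.24 FPKM.

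DNA-binding factors that help recruit the complexes formed a list of 9, of which 8 were tested and grh, listed at 0 in 3 libraries, was not. All 8 were higher in both Piwi RNAi libraries, as were 51.5% of all tested genes. Their median log2 difference was 0.71, and after median-of-ratios scaling it was 0.33, with 4 of the 8 higher in both against 26.9% of all tested genes. By limma 0 of the 8 passed and 3 were higher at an unadjusted p under 0.05, against 21.7% of all tested genes. Trl, the GAGA factor, had 19.8 and 36.1 FPKM in the controls and 93.6 and 46.8 FPKM under Piwi RNAi, a log2 difference of 1.27 with a wide spread in both groups. Dsp1, an HMG box protein, had a log2 difference of 0.85, Spps, an Sp1-like zinc finger protein, 0.89 and psq 0.57.

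The Trithorax group, which counters Polycomb silencing, had differences of a similar size to those of the Polycomb genes. Of 27 listed genes 26 were tested, with Set1 listed at 0 in every library. Of these, 23 were higher in both Piwi RNAi libraries, as were 51.5% of all tested genes. By limma 0 passed and 15 were higher at an unadjusted p under 0.05, against 21.7% of all tested genes. Their median log2 difference was 0.75, beside 0.79 for the 10 Polycomb genes and 0.37 for all tested genes. After median-of-ratios scaling it was 0.37, with 16 higher in both, against 26.9% of all tested genes, and 1 lower in both. The smallest p-values belonged to polybromo, with 8.06 and 8.20 FPKM against 19.6 and 17.4 FPKM (adjusted p = 0.119 by limma), then Bap111, the histone demethylase gene lid, and mor. polybromo, Bap111 and mor encode subunits of Brahma remodelling complexes, and their log2 differences were 1.09, 0.97 and 0.89, while that of lid was 0.94. Utx, which removes the methyl mark that E(z) sets, had 19.8 and 18.6 FPKM in the controls and 19.3 and 26.8 FPKM under Piwi RNAi, so its groups overlapped. trx and ash2 overlapped too, with log2 differences of 0.14 and −0.07.

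**Figure D4:**
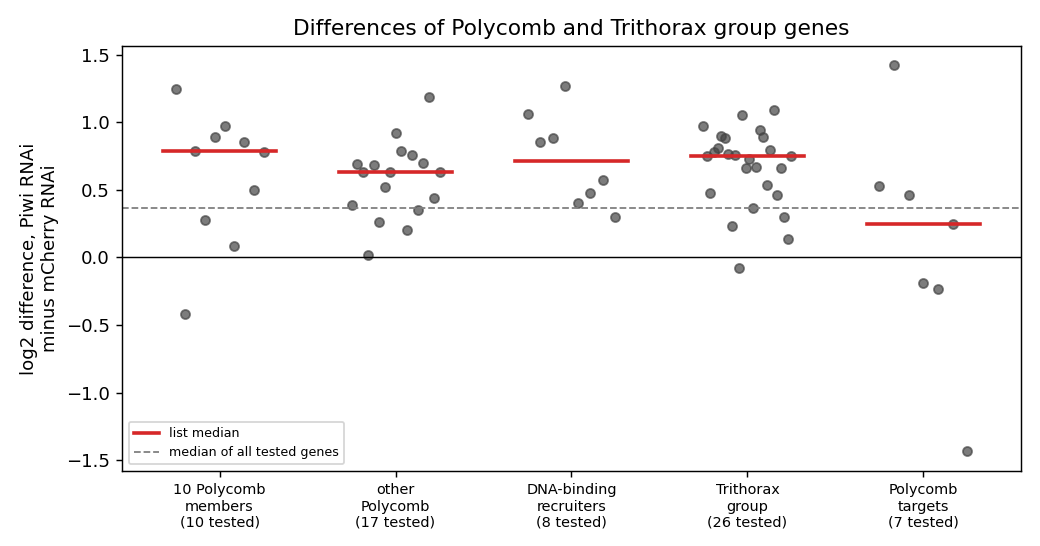
Log2 difference, Piwi RNAi less control as log2(FPKM + 1), of each tested gene in the Polycomb, recruiter, Trithorax and target lists, with the median of each list (red bar) and of all tested genes (dashed line, 0.37). The medians are 0.79, 0.63, 0.71, 0.75 and 0.24 from left to right, and Pc at −0.42 is the lowest point of the first 4 lists.

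Classical target genes of Polycomb silencing mostly had little or no listed signal in either group. Of 44 such genes known from embryos and imaginal discs, 19 were listed at 0 in every library and 7 reached a mean of 1 FPKM. Of all 15495 genes, 4508 were at 0 in every library and 8313 reached that mean. With an estimated 1610000 to 2280000 fragments per library, a listed 0 does not show that a gene was silent. Among the Hox genes, pb, Scr, Ubx and abd-A were listed at 0 in every library. Dfd and Antp were at 0 except in Piwi RNAi replicate 1, with 0.235 and 0.195 FPKM. lab, the Hox gene of the midgut, had 4.39 and 5.76 FPKM in the controls and 3.37 and 5.04 FPKM under Piwi RNAi, and Abd-B had 0.806 and 0.989 FPKM against 1.52 and 1.98 FPKM. Between 14 and 18 of the 44 were above 0 in a library, and their summed level was 31.7 and 31.7 FPKM in the controls and 36.1 and 31.1 FPKM under Piwi RNAi, so the groups overlapped. By limma 0 of the 7 tested targets passed, 0 had an unadjusted p under 0.05, and their median log2 difference was 0.24. It was −0.09 after median-of-ratios scaling. The leading targets were tup, at 1.98 and 1.94 FPKM against 0.197 FPKM and a listed 0, ap, at a listed 0 and 0.375 FPKM against 2.66 and 1.70 FPKM, cad, the caudal homeobox gene, and Abd-B. tup and ap thus lay in opposite directions, and their adjusted p-values by limma were 0.208 and 0.210.

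Among genes outside every list whose mean reached 5 FPKM, the 5 whose pattern over the 4 libraries was closest to the mean pattern of the 10 Polycomb genes included CG9135, LanB2, CG8485 and Cct1. The measure was the Euclidean distance between log2(FPKM + 1) values centred on each gene's mean, which was 0.013 for CG9135 and 0.048 for Cct1. Of the 10 genes themselves pho lay closest to that mean pattern, at 0.279, and Pc, esc and E(z) farthest, at 1.06, 0.919 and 0.756. The 5 genes outside the lists were picked for the smallest distances, so theirs cannot be compared with those of the 10. CG9135 had 20.5 and 26.7 FPKM in the controls and 37.2 and 35.0 FPKM under Piwi RNAi, and its difference did not pass (adjusted p = 0.184 by limma).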

How the data were processed

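The authors deposited 1 table of FPKM values that holds genes in rows and libraries in columns. They used TopHat and Cufflinks, per the submitters' processing notes. Neither a version nor the genome build, annotation, strand setting or library scaling is stated in any source used here. FPKM values are not counts. They were analysed as log2(FPKM + 1) with limma 3.58.1 in R 4.3.3 (lmFit and eBayes with a trend), two-sided, over the 8313 genes whose mean reached 1 FPKM, with Benjamini-Hochberg adjustment over these genes and a threshold of 0.05. It had 2 degrees of freedom from residuals and 2.86 from the prior. The test on simulated data drew values from limma's own model, so it cannot show how limma performs on these libraries. The log2(FPKM + 1) scale understates the change of low genes. Errors beside log2 differences are standard errors.

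Fragment numbers were estimated from genes that have 1 transcript in the Ensembl annotation of assembly BDGP6, 800 nt or longer, with 130 nt taken off its length. Of low values, 87.1% to 89.8% lay within 0.1 of a whole number, against 20% by chance. For genes with several transcripts the median length was used. Intervals made from them are exact 95% Poisson intervals and cover counting error only.

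The 10 genes came from a fixed list of symbols. The members, the background lists and the tests were chosen with earlier results of these data known. Named genes were all members and, per background list, any gene past the threshold and the 4 with the smallest p. escl, Caf1, jing, Pcl, phol, Sfmbt, Kdm2, Su(z)2, Utx, trx, ash2, grh, Set1, klu, zfh2, Sox100B, Dl, sc, E(spl)mbeta-HLH, Sr-CI, Orcokinin, npf, CCHa1, CCHa2, Dh31, Myo31DF, up, lab and the other Hox genes were named after their values were seen. All 159 listed symbols matched a row, some by an older symbol. The alternatives were other pseudocounts, filters and scalings, eBayes with robust variances or with no trend, a replicate block, and leaving out each library. Counts of genes higher in both libraries under other scalings and without each library, and the scaled sums of PRC1 and PRC2, were added after seeing the data. A search for motifs in promoters and sequences of the proteins are not reported here.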

Additional observations from a re-analysis of the deposited data

How the results depend on the processing

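None of the 10 Polycomb genes passed limma's test in any of the 13 alternatives, with 0 to 6 of them at an unadjusted p under 0.05 and a smallest adjusted p of 0.0961 for E(z) with the replicate number as a block. The log2 differences of E(z), Su(z)12, ph-p, ph-d, Psc, Scm and pho stayed positive and that of Pc negative in all 13. Of these settings only the pseudocounts, the scalings and leaving out a library could change a log2 difference. That of esc turned to −0.0038 at a pseudocount of 5, −0.20 after median-of-ratios scaling and −0.65 without mCherry RNAi replicate 1 (0.82 without replicate 2), and that of Sce to −0.12 after quantile normalization and −0.11 after median-of-ratios scaling. The median of the 10 was 0.56 at a pseudocount of 5, 0.42 after quantile normalization and 0.42 after median-of-ratios scaling, and lay between 0.58 and 0.96 when any 1 library was left out. After quantile normalization 5 of the 10 were higher in both Piwi RNAi libraries, against 32.7% of all tested genes, and with a library left out 8 to 9 were, against 58.6% to 63.8%. Of all tested genes, 98 changed, and 0 without a filter on low values (2268 at an unadjusted p under 0.05), 167 at a mean of at least 5 FPKM, 38 after quantile normalization, 8 after median-of-ratios scaling, 4 without a trend, 209 with robust eBayes and 0 without any 1 library (619 to 3195 at an unadjusted p under 0.05). With the replicate number as a block 194 changed. The labels do not say that a number marks a shared batch, so the main fit did not pair the libraries. Deviations of same-numbered libraries correlated at 0.25 across genes. That value rests on 1 difference per group and cannot decide whether they share a batch. esc fell under the filter of 5 FPKM and has no value there. With 4 to 17 fragments per library, esc had the fewest of the 10 genes in every library. Its limma interval, drawn from 2 libraries per group, was also the widest, and the part of depth in that was not tested.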
